A study of Homo sapiens and Mus musculus with 29 samples.

Results

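The GATA transcription factors were followed here through 5 members, GATA2, GATA3, GATA4, GATA5 and GATA6, taken by gene symbol from 58719 genes measured in grafts of a human pancreatic cancer cell line and, as mouse orthologs, from 54446 genes measured in a pair of mouse pancreatic cancer lines. The members were chosen by name with earlier results of these data in view, in which GATA6 was higher in HNF4G-KO than in control tumors, so the values of that contrast are given as a description without a test. The human material comprised 21 samples of HPAF-II, an established pancreatic adenocarcinoma line, injected into the pancreas of NSG mice, an immunodeficient strain, at about 8 weeks of age. Primary tumors came from cells carrying a Cas-9 empty vector (control, 3 tumors), a lentiviral FOXA1 overexpression (FOXA1-OE, 3 tumors), a CRISPR HNF4G knockout (HNF4G-KO, 4 tumors) or both changes (HNF4G-KO + FOXA1-OE, 5 tumors from 4 mice). Metastases were sampled for HNF4G-KO (2, both from the peritoneum) and for HNF4G-KO + FOXA1-OE (4 from 3 mice, taken from spleen, peritoneal fat and peritoneum). The knockout cells were a pool of clones, which the paper describes both as knockouts (HNF4G-/-) and as carrying heterozygous frameshifts. The mouse material comprised 8 libraries of cultured cells labeled wild type, 4 of a line from a KPC pancreatic tumor and 4 of a line from the matched liver metastasis, KPC being a genetic mouse model of this cancer.

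GATA factors bind the DNA letters GATA through a pair of zinc fingers and open chromatin together with forkhead proteins such as FOXA1. GATA1, GATA2 and GATA3 are best known from blood cells, where GATA2 keeps stem and progenitor cells and GATA3 directs T cells, and GATA3 is also the luminal factor of breast epithelium. GATA4, GATA5 and GATA6 are the endodermal and cardiac members, and GATA6 marks the classical, gland-forming subtype of pancreatic adenocarcinoma.

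Libraries held an estimated 33.1 to 69.6 M counted reads (M, 10 to the power of 6) in the human samples and 30.1 to 44.4 M in the mouse samples. Levels are RPKM (reads scaled to transcript length and to library size), which can be compared between genes. In the human samples 6 epithelial markers summed to between 3020 and 5980 RPKM. Across the human samples the markers of mouse stroma summed to between 33.4 and 383 RPKM, of endothelium to between 3.83 and 15.0 RPKM, of blood to between 1.55 and 10.7 RPKM, of mesothelium to between 21.7 and 99.5 RPKM and of fat to between 11.3 and 54.6 RPKM. UPK3B and CALB2, at up to 52.6 and 66.7 RPKM, carried the mesothelial sum, with WT1 and LRRN4 at most at 1.09 and 0.179 RPKM. In each group only 1 of the 5 fat genes reached 1 RPKM in any sample. Whether these sums come from mouse cells was not tested. Acinar enzymes reached 804 RPKM in 1 control tumor and stayed at or below 20.0 RPKM in the other groups. Several libraries went against their labels. FOXA1 was at 6.32 and 8.18 RPKM in FOXA1-OE tumors 1 and 2 and at 0.763 RPKM in the library labeled FOXA1-OE tumor 3, within the 0.519 to 0.932 RPKM of the controls. FOXA1 lay between 4.65 and 23.1 RPKM in the HNF4G-KO + FOXA1-OE tumors, but in the metastases of this group it was at 0.535, 1.30 and 1.56 RPKM in metastases 1, 3 and 4 and at 17.9 RPKM in metastasis 2. HNF4G mRNA was at 2.48 to 3.47 RPKM in control tumors and at 5.72 to 8.42 RPKM in HNF4G-KO tumors, the reverse of a loss, although an mRNA level does not read a frameshift. In FOXA1-OE tumors HNF4G mRNA was at 0.495 to 3.04 RPKM, lowest in tumor 3, the library without raised FOXA1. It was at 1.69 to 7.09 RPKM in HNF4G-KO + FOXA1-OE tumors, lowest in tumor 5, so these groups overlapped. The HNF4G-KO metastases 1 and 2 had 12.0 and 3.01 RPKM. Groups are therefore named as labeled throughout. All are bulk samples, in which fewer cells of a type and less RNA per cell cannot be told apart.

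GATA2 lies on chromosome 3 of GRCh38, from 128479427 to 128493201 on the minus strand, and is the member whose level moved most between the human groups. RefSeq gives it 2 starts, and the 250 bases before each are shown because the antisense gene GATA2-AS1, on the plus strand from 128489212 to 128502970, runs across the first start but not across the second. CpG dinucleotides are in capitals and the strand printed is that of GATA2.
GATA2 first start, chr3:128493202-128493451, minus strand: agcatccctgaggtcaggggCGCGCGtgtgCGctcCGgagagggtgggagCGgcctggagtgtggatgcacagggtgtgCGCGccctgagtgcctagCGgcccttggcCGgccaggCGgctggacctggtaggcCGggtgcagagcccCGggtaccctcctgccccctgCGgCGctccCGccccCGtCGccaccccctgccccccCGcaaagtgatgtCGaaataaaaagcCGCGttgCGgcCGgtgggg
GATA2 second start, chr3:128488531-128488780, minus strand: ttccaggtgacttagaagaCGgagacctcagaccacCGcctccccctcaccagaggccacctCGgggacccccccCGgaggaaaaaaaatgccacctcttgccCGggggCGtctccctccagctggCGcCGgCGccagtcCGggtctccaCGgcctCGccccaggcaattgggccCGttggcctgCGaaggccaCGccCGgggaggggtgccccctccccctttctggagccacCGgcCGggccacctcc
The first stretch held 24 CpG and the second 18, and 23.7% and 36.8% of 35116 such RefSeq stretches of 250 bases held at least as many. Neither held a GATA motif (AGATAA, with T also taken at the first base and G at the last), a forkhead motif (TGTTTAC) or an HNF4 motif (CAAAGTCCA) on either strand, which occurred in 22.3%, 2.98% and 0.325% of all stretches. The 6 stretches listed for GATA3 and the 1 listed for GATA6 held none of these letters either, and no match says only that the letters are not in these windows.

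GATA6, GATA3 and GATA2 were the members detected in the human grafts, whereas GATA4 and GATA5 were near 0. GATA4, a factor of heart and endoderm, had between 0 and 14 estimated reads and at most 0.0554 RPKM in any of the 21 samples. GATA5, its close relative in gut endoderm, was listed at 0 in all samples but HNF4G-KO + FOXA1-OE tumor 5, where 2 reads gave 0.0141 RPKM. A count of 3 reads would have been 0.00971 to 0.0204 RPKM for GATA4 and 0.0165 to 0.0345 RPKM for GATA5. The commonest low count was 2 reads in every library, so 2 reads may stand for a single counted fragment. GATA4 was above 3 reads in some libraries, among them all 3 controls with 14, 4 and 8 reads, and GATA5 in none. Both stayed far below the mean of 1 RPKM asked of tested genes. GATA6 was above GATA3 in 21 of 21 samples. It was above GATA2 in 3 of 3 control and 3 of 3 FOXA1-OE tumors, but in only 1 of 4 HNF4G-KO tumors, where both genes overlapped around 7 RPKM. GATA2 and GATA3 overlapped in control and FOXA1-OE tumors, where GATA2 was the higher in 1 of 3 and 0 of 3. GATA2 was above GATA3 in 4 of 4 HNF4G-KO tumors and in 5 of 5 HNF4G-KO + FOXA1-OE tumors.

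**Figure D1:**
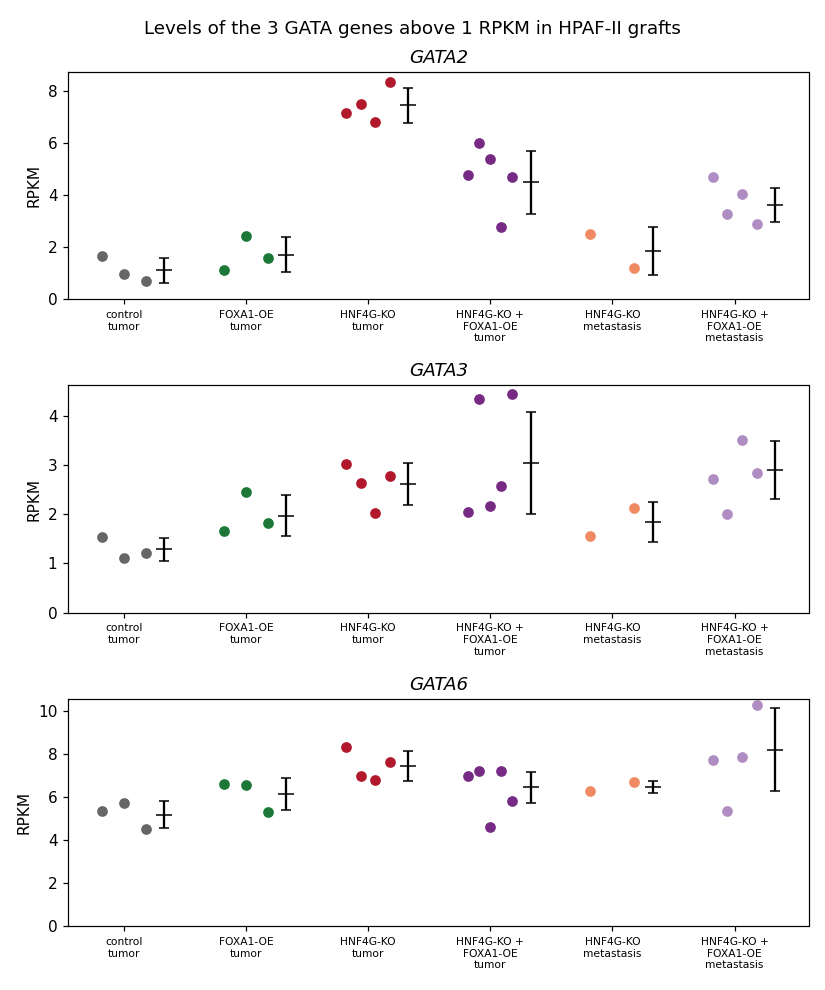
RPKM of GATA2, GATA3 and GATA6 (y axis) in each human sample (points) of the 6 groups (x axis); black bars give the mean and SD over mice. GATA2 lay between 0.705 and 2.45 RPKM in the control and FOXA1-OE tumors and between 6.79 and 8.34 RPKM in the HNF4G-KO tumors.

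The comparison of HNF4G-KO with control tumors asked how tumors labeled as knockouts of HNF4G, a nuclear receptor of the gut epithelium, differ from controls. GATA2 was at 1.65, 0.971 and 0.705 RPKM in control tumors 1 to 3 and at 7.14, 7.48, 6.79 and 8.34 RPKM in HNF4G-KO tumors 1 to 4. All HNF4G-KO tumors were thus above all controls. GATA2 averaged 7.44 ± 0.662 RPKM with HNF4G-KO (SD, n = 4) and 1.11 ± 0.489 RPKM without it (SD, n = 3), a ratio of 6.71. GATA3 was at 1.55, 1.11 and 1.20 RPKM in the controls and at 3.02, 2.64, 2.02 and 2.78 RPKM in the HNF4G-KO tumors, 2.03 times as high on average. GATA6 was at 5.35, 5.71 and 4.51 RPKM in the controls and at 8.35, 6.998, 6.79 and 7.63 RPKM in the HNF4G-KO tumors, 1.43 times as high. The groups did not overlap for any of the 3 genes, and how many of all genes separate these groups was not counted. The log2 fold changes of RPKM + 1 were 2.02 (SE 0.22) for GATA2, 0.66 (SE 0.19) for GATA3 and 0.45 (SE 0.14) for GATA6, while 12.2% of the 14269 genes tested were called in this contrast, from which nothing is read about members selected on it. Beside these values, the summed stroma markers ran from 46.5 to 67.2 RPKM in HNF4G-KO and from 50.5 to 185 RPKM in control tumors, and the endothelial markers from 7.79 to 8.12 and from 5.06 to 7.28 RPKM. The defining endothelial genes PECAM1 and VWF were at most at 0.0544 and 0.136 RPKM in any graft and the leukocyte gene PTPRC at most at 0.331 RPKM, while the blood markers HBB, CSF1R and LAPTM5 reached 8.19, 3.05 and 1.53 RPKM. The part of host cells in the GATA2 levels was not tested. ESAM and EGFL7 made up most of the endothelial sum, at up to 11.6 and 4.35 RPKM.

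The HNF4G-KO + FOXA1-OE and FOXA1-OE tumors posed the same question in mice that the first contrast did not use. The paper's methods describe a pool of knockout clones and no separate knockout for the cells with FOXA1-OE. The p-values here therefore measure the spread between grafts, not between separate knockouts. GATA2 was higher with HNF4G-KO here too. It was at 1.14, 2.45 and 1.57 RPKM in FOXA1-OE tumors 1 to 3 and at 4.77, 5.98, 5.38, 2.77 and 4.71 RPKM in HNF4G-KO + FOXA1-OE tumors 1 to 5, of which tumors 2 and 3 shared a mouse and were averaged on the log2 scale. The groups did not overlap, their averages being 4.48 ± 1.22 RPKM over 4 mice and 1.72 ± 0.666 RPKM over 3 (SD). Genes that separate these groups were not counted. GATA2 was higher by 1.01 on the log2 scale (SE 0.22, limma adjusted p = 0.0129). The spread behind this p was estimated from all primary tumors, those of the first contrast among them. Of the 3 members tested 1 was called, GATA2, and of the 14269 genes tested 7.86% were. Without the library labeled FOXA1-OE tumor 3 the log2 fold change was 0.98 (limma adjusted p = 0.0312). Without FOXA1-OE tumor 1 it was 0.85 (limma adjusted p = 0.0658), and in a fit of only these groups it was 1.01 (limma adjusted p = 0.137). An exact permutation test over mice gave a two-sided p of 0.0571, the smallest that 4 against 3 mice allow. The summed endothelial markers, again mostly ESAM and EGFL7, were also higher without overlap. They ran from 6.71 to 15.0 RPKM in HNF4G-KO + FOXA1-OE and from 3.83 to 5.73 RPKM in FOXA1-OE tumors. Their part in the GATA2 difference was not tested.

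GATA3 and GATA6 did not pass in that comparison. GATA3 was at 1.65, 2.45 and 1.82 RPKM in FOXA1-OE tumors and at 2.04, 4.34, 2.16, 2.56 and 4.44 RPKM in HNF4G-KO + FOXA1-OE tumors, groups that overlapped (log2 fold change 0.42, SE 0.19, limma adjusted p = 0.199). GATA6 was at 6.60, 6.55 and 5.31 RPKM and at 6.96, 7.23, 4.62, 7.21 and 5.84 RPKM, also with overlap (log2 fold change 0.06, SE 0.14, limma adjusted p = 0.833).

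Against control tumors, whose values are those of the first contrast and are shared with it, GATA2 rose in HNF4G-KO + FOXA1-OE tumors by a log2 fold change of 1.37 (SE 0.22, limma adjusted p = 0.00409) and GATA3 by 0.79 (SE 0.19, limma adjusted p = 0.0303). GATA6 differed by 0.27 (SE 0.14, limma adjusted p = 0.310). In this comparison 4.70% of 14269 genes were called, and its p-values are not free of the choice of the family. In a fit of only these groups the adjusted p of GATA2 became 0.0528 and that of GATA3 0.126. For GATA3 the call was also lost on leaving out any 1 of the 3 controls (limma adjusted p from 0.0573 to 0.137), the mouse of tumors 2 and 3 (0.0560) or tumor 5 (0.0540).

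Between FOXA1-OE and control tumors no member passed the threshold. GATA2 had means of 1.72 ± 0.666 RPKM in FOXA1-OE and 1.11 ± 0.489 RPKM in control tumors (SD, n = 3 each), with overlap. The log2 fold changes were 0.36 (SE 0.23) for GATA2, 0.37 (SE 0.20) for GATA3 and 0.21 (SE 0.15) for GATA6, all with a limma adjusted p of 0.840. GATA3 was the one member without overlap, all FOXA1-OE tumors being above all controls. Its exact permutation p was 0.1, the smallest that 3 against 3 allow, and the share of all genes that separate these groups was not counted. Of 14269 genes 0.0% were called and 652 had an unadjusted limma p under 0.05. FOXA1 itself differed by a log2 fold change of 1.53 (SE 0.48, limma adjusted p = 0.840), with tumor 3 at the level of the controls.

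HNF4G-KO + FOXA1-OE tumors were also set against HNF4G-KO tumors, the 4 tumors of the first contrast, to see what FOXA1-OE adds. The p-values are therefore not free of the choice of the family. For GATA2 the 4 mice of the combined group had 2.77 to 5.68 RPKM, all below the 6.79 RPKM of the lowest HNF4G-KO tumor. Again the share of all genes that separate the groups was not counted. The log2 fold change of GATA2 was -0.65 (SE 0.20), which did not pass over all genes (limma adjusted p = 0.196). The exact permutation test of this 1 gene gave a two-sided p of 0.0286, unadjusted and the smallest possible. GATA3 (0.13, SE 0.18, limma adjusted p = 0.642) and GATA6 (-0.18, SE 0.13, limma adjusted p = 0.386) overlapped between these groups, and 0.0561% of genes were called. The interaction of HNF4G-KO and FOXA1-OE contains the whole HNF4G-KO against control contrast, so its values are given as a description too. It was -1.01 (SE 0.31) for GATA2, -0.24 (SE 0.27) for GATA3 and -0.39 (SE 0.19) for GATA6, and 0.0350% of genes were called in it.

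**Figure D2:**
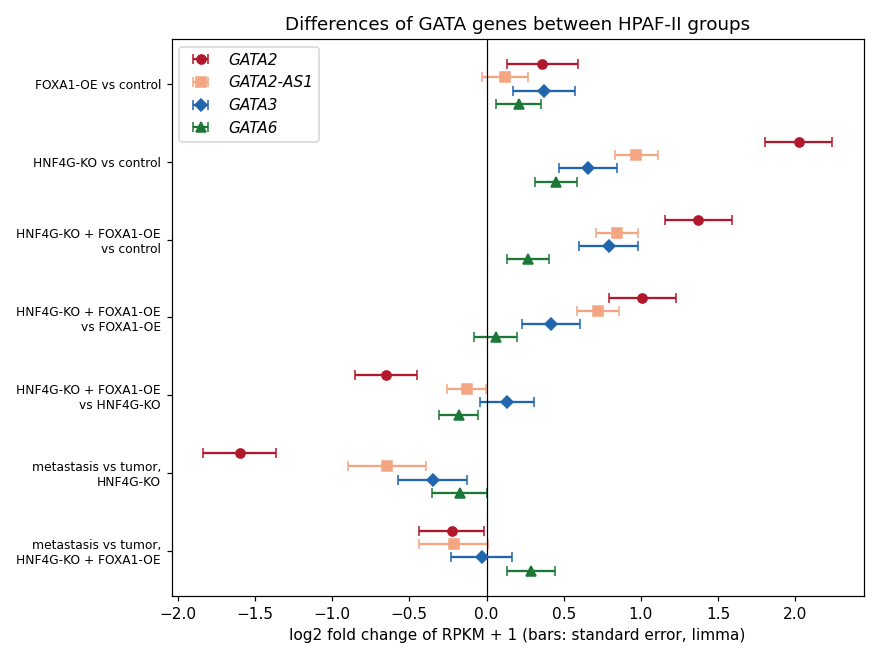
Log2 fold changes of RPKM + 1 (x axis) with their standard errors for GATA2, GATA2-AS1, GATA3 and GATA6 in 7 comparisons (y axis). GATA2 ran from 2.02 in HNF4G-KO against control tumors to -1.60 in HNF4G-KO metastases against tumors, while GATA6 stayed between -0.18 and 0.45; comparisons that share a group are not independent.

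Metastases were compared with primary tumors of the same cells, and GATA2 was the member that fell. In the 2 HNF4G-KO metastases GATA2 was at 2.51 and 1.20 RPKM, below all 4 HNF4G-KO tumors. The lower value lay within the range of the control tumors and the higher one above it. HNF4G mRNA was at 12.0 RPKM in metastasis 1 and at 3.01 RPKM in metastasis 2, within the 2.48 to 3.47 RPKM of the controls. FOXA1 was at 0.362 and 0.602 RPKM, the latter also within the control range. Whether metastasis 2 carries the right label was not tested. GATA2 averaged 1.85 ± 0.923 RPKM in the metastases (SD, n = 2) and 7.44 RPKM in the tumors. The share of all genes lying below all tumors was not counted. GATA2 fell by 1.60 on the log2 scale (SE 0.24, limma adjusted p = 0.0393) in a comparison where 0.0426% of 14099 genes, or 6 genes, were called. The metastases came from the mice of tumors 2 and 4, and with the mouse as a replicate block the value was -1.63 (SE 0.20, limma adjusted p = 0.00963), with 77 genes called. Without metastasis 2 it was -1.26 (limma adjusted p = 0.177), where the lone metastasis is assumed to vary like the other groups, and the adjusted p ranged from 0.107 to 0.164 when 1 of the 4 tumors was left out. It was 0.0814 with no filter on low RPKM and 0.0906 after shifting samples to the same median. With 2 against 4 samples an exact permutation test cannot go below 0.133. The 4 tumors are those of the contrast from which the family was chosen, so these p-values are not free of that choice.

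GATA6 was at 6.27 and 6.69 RPKM in the same metastases, 0.870 times the tumor mean, with a log2 fold change of -0.17 (SE 0.18, limma adjusted p = 0.692). GATA3 was at 1.55 and 2.13 RPKM and overlapped with the tumors (-0.35, SE 0.22, limma adjusted p = 0.505). The epithelial markers summed to 3730 and 3830 RPKM in these metastases and to between 3090 and 3720 RPKM in the tumors. The stroma markers summed to 71.7 and 383 RPKM against 46.5 to 67.2 RPKM, and their part in the GATA2 difference was not tested.

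In HNF4G-KO + FOXA1-OE metastases the level of GATA2 was not resolved from that of the tumors. Metastases 1 to 4 had 4.71, 3.29, 4.03 and 2.88 RPKM, within the 2.77 to 5.98 RPKM of the primary tumors, and metastases 1 and 2 shared a mouse. The log2 fold change was -0.23 (SE 0.21, limma adjusted p = 0.673). GATA3 was at 2.71, 2.00, 3.51 and 2.83 RPKM (-0.03, SE 0.20, limma adjusted p = 0.960). GATA6 was at 7.75, 5.38, 7.87 and 10.3 RPKM, and metastasis 4 was the highest GATA6 sample of the human set (0.29, SE 0.16, limma adjusted p = 0.534). In this comparison 0.00709% of genes were called, or 1 gene, and 11 with the mouse as a replicate block, in which the 3 members again did not pass. Metastasis 2, the only one with high FOXA1, had the second lowest GATA2 and the lowest GATA3 and GATA6 of the 4. The difference between the metastasis effects with and without FOXA1-OE was 1.37 (SE 0.32) for GATA2, with an unadjusted limma p of 0.000757 and an adjusted p of 0.266, while the median gene differed by 0.145 and 0.0% of genes were called (2267 at an unadjusted p under 0.05). This difference was added after the values were seen, and it also uses the HNF4G-KO tumors of the first contrast.

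The antisense neighbors of the 3 expressed members are transcribed from the opposite strand. The libraries were made with a strand-marking kit, but the strand setting of the counting was not given in the sources used here. GATA2-AS1 overlaps GATA2 by 3990 bases of gene span and 78 bases of exons. It was at 1.23 to 1.76 RPKM in control, 1.31 to 2.12 RPKM in FOXA1-OE, 3.52 to 4.27 RPKM in HNF4G-KO and 3.08 to 3.93 RPKM in HNF4G-KO + FOXA1-OE tumors, so the tumors with and without HNF4G-KO did not overlap. Such separation was not counted over all genes. GATA2-AS1 rose between FOXA1-OE and HNF4G-KO + FOXA1-OE tumors by a log2 fold change of 0.72 (SE 0.14, limma adjusted p = 0.00666). In the HNF4G-KO metastases it split, at 3.91 RPKM in metastasis 1, as high as in the tumors, and at 1.03 RPKM in metastasis 2, whereas GATA2 was low in both. GATA6-AS1, which shares 94 exonic bases with GATA6, was at 0.159 to 0.525 RPKM, and GATA3-AS1, which shares none with GATA3, at 0.0288 to 0.278 RPKM over all human samples.

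**Figure D3:**
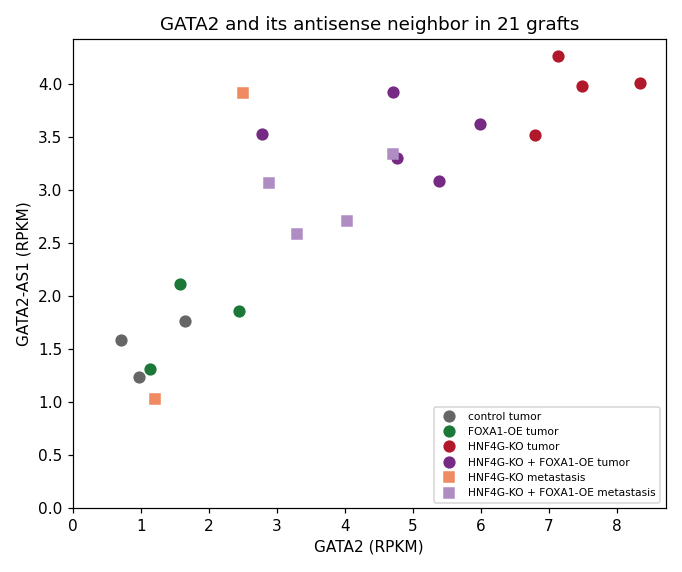
RPKM of GATA2 (x axis) and of GATA2-AS1 (y axis) in each of the 21 human samples, circles for tumors and squares for metastases. HNF4G-KO metastasis 1 had 2.51 RPKM of GATA2 with 3.91 RPKM of GATA2-AS1, apart from the other samples of low GATA2.

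Genes around the family were taken from lists, and their counts are read in the HNF4G-KO + FOXA1-OE against FOXA1-OE comparison, where 7.86% of all genes were called and the median gene differed by -0.03 on the log2 scale. Of 9 tested genes with other GATA-type zinc fingers, 0 were called (median 0.22). Of 8 tested cofactors of GATA proteins, 0 rose and 1 fell (median 0.12), the LIM-domain adaptor LMO4 (-0.85, SE 0.19, limma adjusted p = 0.0153). Of 13 tested endoderm partner factors, 3 rose and 0 fell (median 0.37), among them the intestinal homeobox factor CDX2 (1.10, SE 0.29, limma adjusted p = 0.0359). Of 22 classical subtype genes, 7 rose and 0 fell (median 0.63), led by the adhesion glycoproteins CEACAM5 (3.07, SE 0.49, limma adjusted p = 0.00269) and CEACAM6 (1.93, SE 0.30, limma adjusted p = 0.00234). Of 21 tested basal-like subtype genes, 7 also rose and 0 fell (median 0.42), led by the squamous surface protein LY6D (4.07, SE 0.57, limma adjusted p = 0.00121) and the cornified envelope protein SPRR3 (2.46, SE 0.42, limma adjusted p = 0.00425). Of the 6 epithelial markers 0 were called. Among host markers EGFL7, an endothelial secreted factor, was called (1.03, SE 0.23, limma adjusted p = 0.0164), as 1 of 2 tested of its list.

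In the metastases none of these lists held a called gene. In HNF4G-KO metastases against tumors 0 of the 8 GATA-type, 0 of the 8 cofactor, 0 of the 13 partner, 0 of the 22 classical and 0 of the 21 basal-like genes tested were called, against 6 genes in all. The medians of these lists were -0.20, -0.25, -0.32, -0.31 and -0.12, beside -0.09 for all genes tested.

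Over the 14 primary tumor mice, the genes whose log2 levels followed each member most closely were listed by Pearson's r, as a description over mice that fall into groups. For GATA2 these were PRR15 (0.950), the invadopodia scaffold SH3PXD2A (0.949), BCAS1 (0.949), TLCD2 (0.947) and the chromatin reader ZMYND8 (0.944). For GATA3 they were INCA1 (0.916), the homeobox factor HOXC8 (0.895), the endocytic epsin EPN3 (0.893), the ubiquitin ligase RNF213 (0.866) and the lipid kinase PIK3C2B (0.866). For GATA6 they were the kinesin KIF3B (0.916), the acetyltransferase NAA40 (0.916), ENSG00000260917 (0.896), PGS1 (0.886) and TNFRSF11A, the receptor of RANK ligand (0.879). No gene stood in more than 1 of the 3 lists.

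In the KPC lines the family had another make-up, with Gata5, Gata6 and Gata4 high, Gata3 low and Gata2 near 0. Gata2 had between 0 and 16 reads and at most 0.0668 RPKM. Gata5 was the highest member in 8 of 8 libraries. Gata4 and Gata3 were steady, at 8.26 to 11.6 RPKM and 1.63 to 2.87 RPKM, Gata4 being above Gata3 in 8 of 8. Gata6 was above Gata4 in 4 of 8 libraries, so that their order was not fixed.

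Between the lines no member and no gene passed over the 4 replicates each. Gata5 was at 28.7, 29.8, 10.6 and 14.7 RPKM in tumor line replicates 1 to 4 and at 16.7, 17.4, 23.3 and 27.9 RPKM in liver metastasis line replicates 1 to 4. Gata6 was at 15.1, 12.9, 6.83 and 5.27 RPKM and at 8.04, 6.35, 11.4 and 12.1 RPKM. Both genes were thus high in tumor replicates 1 and 2 and metastasis replicates 3 and 4 and low in the others, and the lines overlapped. The log2 fold changes were 0.11 (SE 0.33) for Gata5, -0.0045 (SE 0.32) for Gata6, -0.04 (SE 0.13) for Gata4 and -0.08 (SE 0.14) for Gata3, each with a limma adjusted p of 1.0, and 0.0% of 12585 genes were called (109 at an unadjusted p under 0.05).

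Within the numbered replicates the differences ran in opposite directions, and Gata5 and Gata6 passed the threshold only in replicates 1 and 2. In replicates 1 and 2 alone Gata5 fell by 0.75 (SE 0.06, limma adjusted p = 0.00321) and Gata6 by 0.87 (SE 0.13, limma adjusted p = 0.0127) on the log2 scale, with 25.5% of 12429 genes called. In replicates 3 and 4 alone Gata5 was higher in the metastasis line by 0.97 (SE 0.22, limma adjusted p = 0.152) and Gata6 by 0.86 (SE 0.18, limma adjusted p = 0.137), with 0.635% of 12747 genes called. The difference between the pairs of replicates, a comparison added after the values were seen, was -1.72 (SE 0.23, limma adjusted p = 0.00419) for Gata5 and -1.74 (SE 0.23, limma adjusted p = 0.00365) for Gata6, in a comparison where 20.2% of 12585 genes were called. It was 0.27 (SE 0.14, limma adjusted p = 0.211) for Gata4 and 0.42 (SE 0.22, limma adjusted p = 0.232) for Gata3. Over 12585 genes the differences in replicates 1 and 2 and those in replicates 3 and 4 had a Pearson's r of -0.815, a value across genes, which are not independent replicates. No label gives a date or culture that separates these replicates. Whether the line labels of 1 pair of replicates were exchanged could not be settled from these values, and the pooled values above take the labels as given. Foxa1 was at 9.84 to 14.8 RPKM and Hnf4g at 0.420 to 1.26 RPKM over the 8 libraries. The antisense gene Gata5os, which shares 258 exonic bases with Gata5 and was looked at for that overlap, was at 1.81, 1.74, 0.309 and 0.772 RPKM in the tumor line and at 1.09, 0.916, 1.29 and 1.71 RPKM in the metastasis line, high and low in the same libraries as Gata5.

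**Figure D4:**
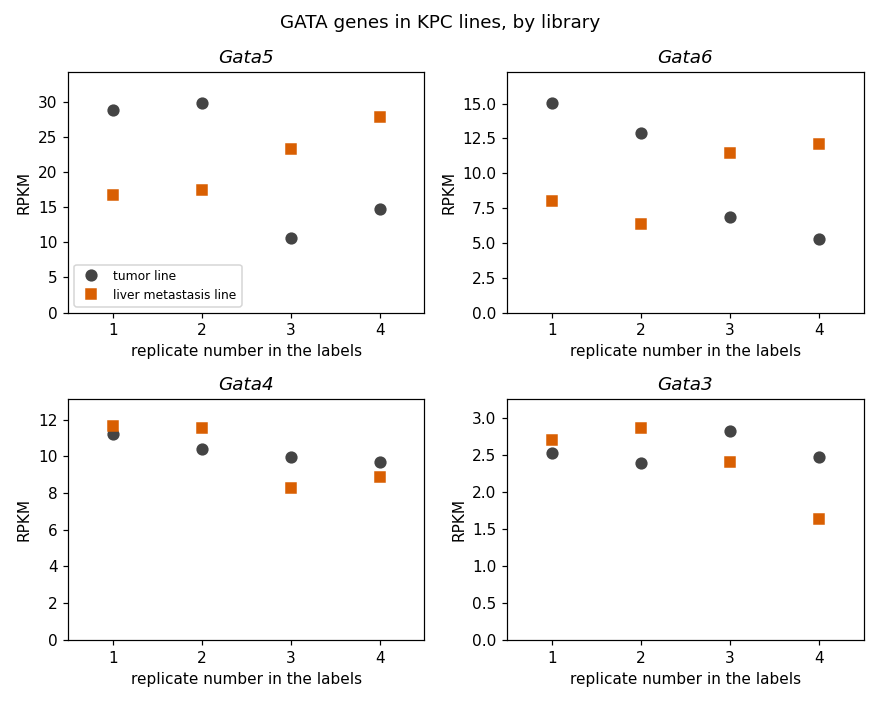
RPKM (y axis) of Gata5, Gata6, Gata4 and Gata3 in each KPC library by replicate number (x axis), circles for the tumor line and squares for the liver metastasis line. The lines change places for Gata5 and Gata6, with the tumor line higher in replicates 1 and 2 and the metastasis line higher in replicates 3 and 4.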

How the data were processed

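RNA was sequenced from 21 HPAF-II grafts and 8 KPC libraries (poly(A) libraries, strand-marking kit). The deposited values are RPKM per gene. The submitters' processing notes name STAR 2.6.1a, featureCounts 2.0.4, DESeq2 and the builds GRCh38 and GRCm38, whereas the authors' methods name GRCh37 for human reads. How mouse reads from the host were treated is not given in the sources used here. Of the KPC table, 12 columns matched no sample and were not used. Coordinates are those of GENCODE and RefSeq on GRCh38, and 58250 of 58719 human and 54409 of 54446 mouse gene IDs had a symbol. Read numbers were estimated from the steps of RPKM and came out whole, within 0.1, for at least 99.8% of values. The commonest low count was 2 reads, and whether reads or fragments were counted was not settled. Floors of 3 reads cover counting error only.

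The members and lists were chosen with earlier results of these data known. Genes averaging 1 RPKM or more were tested as log2(RPKM + 1) with limma 3.58.1 (R 4.3.3, eBayes with trend), Benjamini-Hochberg adjustment over all genes and a threshold of 0.05; a fold change on this scale understates the change of low genes. All primary tumors entered 1 fit, tumors and metastases of the knockout groups another fit and the KPC lines one of their own. Samples of the same kind from 1 mouse were averaged on the log2 scale, and such means are given as RPKM by inverting it. Exact permutation tests (scipy 1.17.1) were two-sided over mice or libraries. The procedure was tested on simulated data. Named were the 5 members, FOXA1 and HNF4G, the 5 genes most correlated with each member, the antisense neighbors and up to 2 called genes per list and direction with the largest fold change, of which 1 is not reported here. That KPC cultures were separate was not stated, so their p-values measure the spread between libraries, which may be technical. Same-mouse tumors and metastases had deviations correlated at 0.248, 0.303, 0.271 and -0.026. The main fits did not pair them, and the mouse entered only as a replicate block in an alternative. Alternatives were another pseudocount (0.1), no filter, a common median, other fits, a replicate block and leaving out each sample.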

Additional observations from a re-analysis of the deposited data

Results flagged for a closer look

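Gata5 and Gata6 differed in their line effect between the pairs of KPC replicates. The metastasis-minus-tumor difference in replicates 1 and 2 minus that in replicates 3 and 4 was -1.72 for Gata5 and -1.74 for Gata6 on the log2 scale (limma adjusted p of 0.00419 and 0.00365), a split chosen after the values were seen and one in which 20.2% of genes were called.

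In the HNF4G-KO + FOXA1-OE tumors 1 sample stood apart for the near-absent members. For GATA4 the gap of the highest sample, tumor 5 with 10 reads, to the next was 0.913 of the group's range. For GATA5 it was 1.0, tumor 5 having 2 reads and the others 0. Of 19 sets of values, each of 1 member in 1 group of 4 or more samples, these 2 stood apart. The limit used marks about 1 in 20 sets of normally spread values by chance, a rate not shown to apply to sets that are mostly 0.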

How the results depend on the processing

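With 2 to 5 samples a group, calls near the threshold moved with the fit. For HNF4G-KO against control tumors, on which the family was chosen, no call of a member is reported. Over the alternatives its log2 fold changes ran from 1.88 to 2.71 for GATA2 and from 0.60 to 0.97 for GATA3. For GATA6 they ran from 0.37 to 0.51. GATA2 and GATA3, called for HNF4G-KO + FOXA1-OE against control tumors, became 1 member with no filter and 0 in a fit of only these groups, with 0 there also for HNF4G-KO + FOXA1-OE against FOXA1-OE. Without 1 mouse these comparisons gave 1 to 2 and 0 to 1 members. GATA2 in HNF4G-KO metastases was lost (0 members) with no filter, with samples shifted to the same median, and in all but 1 of the fits without 1 sample (0 to 1). The difference of metastasis effects gave 0 to 1 members, 1 without HNF4G-KO metastasis 1, a fit in which the lone metastasis left is assumed to vary like the other groups. The number of genes called over all alternatives ran from 284 to 5595 (1736 as reported) for HNF4G-KO against control, from 86 to 1439 (1122) for HNF4G-KO + FOXA1-OE against FOXA1-OE, from 25 to 809 (670) against control and from 0 to 16 (8) against HNF4G-KO tumors, from 0 to 353 (6) in HNF4G-KO metastases and from 0 to 57 (1) in HNF4G-KO + FOXA1-OE metastases, from 0 to 7 (5) for the interaction and from 0 to 3 (0) for FOXA1-OE against control.

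With a replicate block on tumor numbers, which did not pair the mice, 1 member was called for HNF4G-KO + FOXA1-OE against control tumors, and GATA3 against HNF4G-KO turned to -0.067. With the mouse as a replicate block, GATA3 in HNF4G-KO + FOXA1-OE metastases turned to 0.011, and the block changed no other member's call. With the replicate number as a replicate block in the KPC lines, 0 members were called.

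Small differences also turned direction without 1 sample. GATA3 ran from -0.022 to 0.26 for HNF4G-KO + FOXA1-OE against HNF4G-KO tumors and from -0.16 to 0.12 for the metastases of that group, and GATA6 from -0.029 to 0.10 against FOXA1-OE tumors. In the KPC lines Gata3 ran from -0.15 to 0.039, Gata4 from -0.11 to 0.038, Gata5 from -0.16 to 0.31 and Gata6 from -0.24 to 0.21. With a pseudocount of 0.1 Gata6 was 0.0027. Replicates 1 and 2 alone gave 2 called members, with -0.75 for Gata5, 0.13 for Gata3 and 0.092 for Gata4, and replicates 3 and 4 alone 0.86 for Gata6. The causes were not tested. At these depths GATA4 with at most 14 reads, GATA5 with at most 2 and Gata2 with at most 16 stayed under the RPKM filter, and FOXA1-OE against control, without a called gene, sets no limit on the members beyond their standard errors.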
